A study of Homo sapiens with 6 samples.

Results

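Collagen genes were described here in RNA sequencing libraries of a human line labelled HepG2 that carried a short hairpin RNA (shRNA). The members were taken by name: every row whose symbol is COL, a number, A and a number. This found 37 genes among the 27452 rows of the deposited count table, of which 23 passed the filter on low counts and were tested. Of 44 collagen symbols listed by structural class, 7 were not analysed here. There were 3 libraries from a line made with a control shRNA and 3 from a line made with an shRNA against STAT3, a transcription factor of cytokine signalling. One growth protocol (DMEM, serum, antibiotics) covers all 6, and no ligand or drug is named. The labels give neither the hairpin sequences nor whether a line is a pool or 1 clone. They also do not say if the 3 libraries of a group come from separate cultures, and the p-values then rest on a spread that may be technical. Whatever else differs between the 2 lines falls together with the shRNA.

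Collagens are proteins of the extracellular matrix built from 3 chains wound into a triple helix, and each chain is encoded by its own COL gene. Fibrillar collagens (types I, II, III, V, XI, XXIV and XXVII) form cross-banded fibrils. Type IV forms the network of basement membranes, and type VI makes beaded filaments. Type VII makes the fibrils that anchor epithelium to the stroma. The fibril-associated collagens, called FACITs (types IX, XII, XVI and others), sit on the surface of fibrils, the multiplexins (types XV and XVIII) lie in and beside basement membranes, and a last group spans the cell membrane. In liver, most fibrillar collagen is made by stellate cells and fibroblasts, and little by hepatocytes. Many collagens need different chains in one molecule: type V is mostly built of COL5A1 and COL5A2 chains, and the common form of type IV of COL4A1 and COL4A2 chains.

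The libraries held 17408543 to 25862027 counts. Levels are CPM, counts scaled to library size after TMM (a correction for composition), per 1000000, and 3 counts, the floor used for a gene at 0, correspond to 0.113 to 0.175 CPM. STAT3 itself lay at 261, 246 and 246 CPM in control libraries 1, 2 and 3 and at 34.8, 35.8 and 36.2 CPM in STAT3 shRNA libraries 1, 2 and 3, so each library carried the STAT3 level its label names. The labelled cell type was less clear. Of 17 hepatocyte and HepG2 markers listed, 9 had a row and 3 reached 1 CPM in any library. Albumin (ALB) had between 0 and 3 counts per library, and APOA1, APOA2 and FGG had at most 3 in each. Those with a row summed to 4.14 to 4.84 CPM in control libraries and 6.92 to 10.0 CPM in STAT3 shRNA libraries. HNF4A, a hepatocyte transcription factor, rose, with 24 to 34 counts in control and 91 to 192 in STAT3 shRNA libraries. TF had 10 to 41 counts in control and 8 to 24 in STAT3 shRNA libraries, and RBP4 17 to 32 and 18 to 36. Neither was called. AHSG had 0 counts in each control library and 4 to 11 in STAT3 shRNA libraries. Keratins KRT8 and KRT18, chains of epithelial filaments, were abundant, with 27687 to 74565 and 18927 to 45445 counts. Of 5 epithelial markers, 4 rose, where 9.39% of all tested genes were higher. The exception, CDH1, had only 7 to 23 counts, and EPCAM had 52 to 277. The sum of the 5, mostly KRT8 and KRT18, was 2809 to 3371 CPM in control and 4638 to 5079 CPM in STAT3 shRNA libraries. Fibroblast and stellate cell markers (7 of 9 with a row) summed to 19.4 to 24.1 CPM and 28.8 to 30.7 CPM. Among these, ACTA2 rose and FAP was at 0 counts in all 3 STAT3 shRNA libraries. Endothelial markers (3 of 5 with a row, 1 tested and not called) summed to 1.21 to 1.76 CPM and 1.28 to 1.74 CPM. Within this sum VWF had 0 to 3 counts in control and 10 to 19 in STAT3 shRNA libraries. CDH5 had 19 to 33 and 12 to 21. The part of these differences in the results that follow was not tested.

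Sequence from the promoters of a few members is shown because the comparison lowered a transcription factor, and because chains of type IV collagen are transcribed from shared start regions. RefSeq promoter windows (GRCh38.p14, 250 bases before to 50 after a start) were matched by symbol to 28 of the 37 members, in 37 windows. TTCNNNGAA, the palindrome that STAT dimers are known to bind (the same on both strands), was found in windows of 2 member genes, COL7A1 and COL11A2, and in 7.66% of all 35116 windows. COL7A1, which encodes the chain of anchoring fibrils and fell, held 2 matches, 162 and 152 bases before its start. The 250 bases before that start are given with the 2 matches in capitals, on the minus strand at chr3:48595330-48595579.
COL7A1: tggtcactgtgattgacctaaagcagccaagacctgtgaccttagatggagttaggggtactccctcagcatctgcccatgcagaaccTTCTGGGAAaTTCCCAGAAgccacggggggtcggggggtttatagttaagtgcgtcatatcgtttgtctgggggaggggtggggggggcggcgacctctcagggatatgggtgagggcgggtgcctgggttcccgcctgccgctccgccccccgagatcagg
COL15A1, a multiplexin chain and the member that fell furthest, held no such match in its window. The 250 bases before its start are on the plus strand at chr9:98943657-98943906, with the 1 GGGCGG (a GC box, searched on both strands) in capitals.
COL15A1: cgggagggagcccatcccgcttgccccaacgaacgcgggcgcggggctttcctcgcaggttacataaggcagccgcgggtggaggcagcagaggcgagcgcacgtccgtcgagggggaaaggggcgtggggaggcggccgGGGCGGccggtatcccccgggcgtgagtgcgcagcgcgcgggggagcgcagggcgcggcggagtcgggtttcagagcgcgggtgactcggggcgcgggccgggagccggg
The genes of type IV chains lie head to head in pairs. COL4A1 and COL4A2 start 126 bases apart and are read in opposite directions. The whole stretch between the starts is given on the strand of COL4A2 at chr13:110307158-110307283, with 1 CCAAT box and 1 GC box in capitals.
COL4A1 and COL4A2: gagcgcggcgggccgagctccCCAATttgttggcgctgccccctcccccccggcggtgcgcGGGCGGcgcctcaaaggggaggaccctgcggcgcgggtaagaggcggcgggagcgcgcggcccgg
GGGCGG stood in 45.0% and CCAAT in 34.6% of all windows, counting both strands. The starts of COL4A4 and COL4A3 are separated by 418 bases and those of COL4A6 and COL4A5 by 379. A match of letters is a description of the sequence and not a binding site.

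Levels in the control libraries were set by a few chains. Per kb of the longest annotated transcript, which allows genes to be compared, COL5A1 was highest at 81.9 ± 6.46 CPM per kb (SD, n = 3), followed by COL4A2 (65.3 ± 10.7), COL12A1 (52.4 ± 6.14) and COL7A1 (30.0 ± 5.80). COL4A1 (25.3 ± 2.04) and COL6A1 (25.3 ± 4.52) came next and did not differ from each other, or from COL7A1, beyond their spread. COL4A2 and COL12A1 stood in the other order in control library 1, at 17.4% and 19.0% of the per-kb sum over all members. COL5A2 stood at 15.04 ± 0.0525, COL4A5 at 12.2 ± 0.309 and COL9A3 at 10.1 ± 2.74 CPM per kb, where COL4A5 and COL9A3 lay within their spread of each other. COL1A1, a chain of the main fibrillar collagen of skin and bone, reached only 5.98 ± 0.424 CPM per kb. The 14 members that did not pass the filter had at most 12 counts in any library. They include COL3A1 (0 to 8 counts), COL2A1 (0 to 3), COL6A3 (0 to 2), COL11A1 (0 to 1) and COL17A1 (0 to 6). COL13A1 had no count in any control library, COL11A1 and COL20A1 had none in any STAT3 shRNA library, and none of the 3 had more than 1 count in any other.

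**Figure D1:**
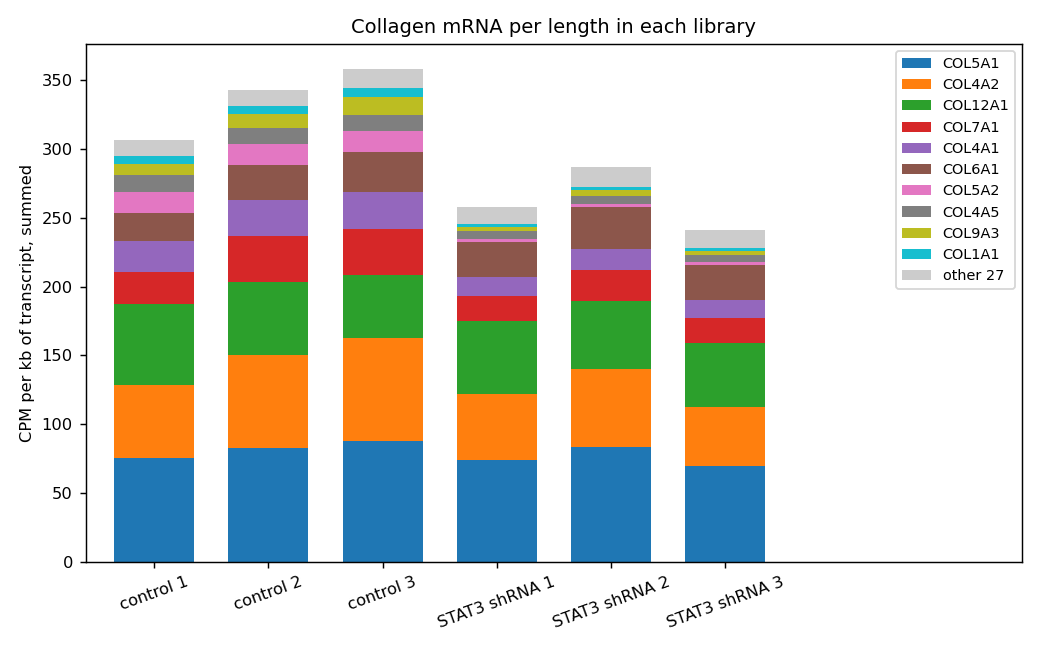
CPM per kb of transcript summed over the 37 collagen genes (y axis) in each of the 6 libraries (x axis), with the 10 genes highest in control libraries in colour and the other 27 in grey. The stacks reach 307 to 359 CPM per kb in control libraries and 241 to 287 in STAT3 shRNA libraries, and the bands of COL5A2, COL9A3, COL1A1 and COL4A5 are narrower in the latter.

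Summed over all 37 members, collagen mRNA was 2453, 2683 and 2737 CPM in control libraries 1, 2 and 3 and 2086, 2270 and 1932 CPM in STAT3 shRNA libraries 1, 2 and 3. Every STAT3 shRNA library was below every control library. In such bulk libraries, fewer cells with a transcript and less of it per cell cannot be told apart. The members took 0.254 ± 0.0104% of all counts in control and 0.217 ± 0.0172% in STAT3 shRNA libraries (SD, n = 3). The make-up of this sum also differed. COL5A1 made up 24.4 ± 0.302% of the per-kb sum in control and 28.8 ± 0.150% in STAT3 shRNA libraries, and the 4 highest members of each library together 68.3 ± 0.744% and 76.7 ± 0.585%. COL5A2 made up 4.49 ± 0.378% and 0.813 ± 0.0975%. COL6A1 took the rank of COL7A1 as the fourth highest member per kb in STAT3 shRNA libraries, at 27.0 ± 2.99 against 19.5 ± 2.54 CPM per kb.

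The comparison asked which collagen genes differed with the STAT3 shRNA. Each log2 fold change sets STAT3 shRNA over control shRNA and is given ± SE, from edgeR's quasi-likelihood test, and adjusted p-values are Benjamini-Hochberg values over all 14999 genes tested, with a false discovery rate (FDR) of 0.05 as the threshold. Of the 23 tested members, 7 fell (COL15A1, COL5A2, COL9A3, COL1A1, COL4A5, COL4A1 and COL7A1) and 4 rose (COL16A1, COL9A2, COL5A3 and COL25A1). That is 47.8% called, against 17.5% of all tested genes. By direction, 8.13% of all tested genes were lower and 9.39% higher. Of the 11 called members, 9 differed by 2-fold or more. The median log2 fold change was -0.12 over the 23 members and -0.01 over all tested genes. Groups did not overlap in 14 of the 23, against 35.7% of all tested genes. COL5A3, COL25A1, COL6A2 and COL8A2 passed the filter only through the STAT3 shRNA libraries and COL4A6 only through the control libraries, so these had to lean that way. Among the 15 members with a mean of at least 5 CPM over all libraries, 7 fell and 1 rose. That is 53.3%, against 18.3% of all tested genes at that level (9.37% lower and 8.89% higher). This cut does not use the group labels, but a member high in 1 group can still pass it. COL15A1, counted among the 7, reached it only through the control libraries (13.8 CPM against 1.13 CPM in STAT3 shRNA libraries).

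Most calls held in all 13 other fits, but counts over all genes moved with single libraries. Of the 11 called members, 10 were called in each of the 13 fits, COL7A1 being the exception. Over all genes, 1408 were higher and 1219 lower. With control library 2 left out, 819 and 708 were called. Leaving out STAT3 shRNA library 1 gave 796 and 666, and leaving out library 3 of that group gave 800 and 675. With control library 1 left out, 2030 were lower. Scaling by library totals gave 1911 higher and 874 lower, or 68.6% higher against 53.6%, and under that scaling 5 members were higher and 7 lower.

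**Figure D2:**
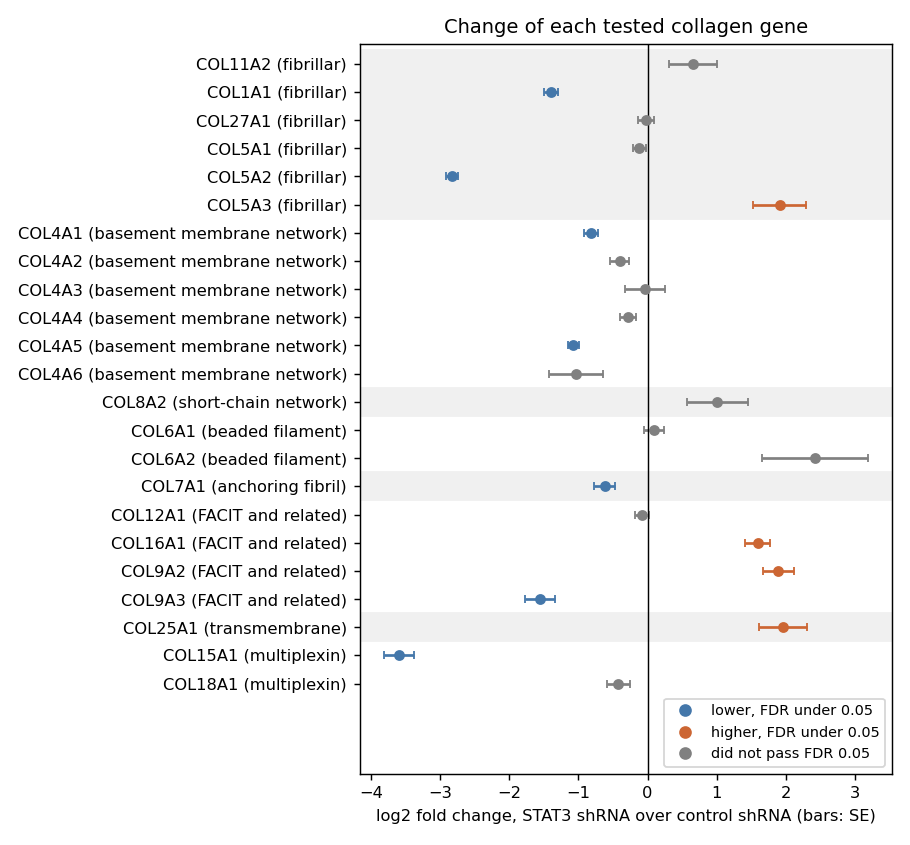
Log2 fold change of STAT3 shRNA over control shRNA (x axis) with its SE for the 23 tested collagen genes (y axis), grouped by structural class and coloured by whether they passed an FDR of 0.05. COL15A1 lies furthest left at -3.59, and COL6A2, furthest right at 2.42, did not pass.

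Among fibrillar chains, 2 of 6 tested fell and 1 rose. COL5A2 (ENSG00000204262.13), the partner chain of COL5A1 in type V collagen, lay at 107, 107 and 106 CPM in control libraries 1, 2 and 3 and at 14.4, 14.9 and 15.7 CPM in STAT3 shRNA libraries 1, 2 and 3. The 2 groups were narrow and far apart. This is a 7.10-fold lower level (-2.83 ± 0.0911, adjusted p = 2.51e-07). The 40 expressed genes nearest to COL5A2 had a median log2 fold change of -0.51. COL1A1 (ENSG00000108821.13), the major chain of type I collagen, lay at 38.9, 38.3 and 43.5 CPM in control and 15.01, 16.5 and 14.3 CPM in STAT3 shRNA libraries. Again no library of one group reached the other, and the level fell 2.63-fold (-1.40 ± 0.108, adjusted p = 5.16e-05). COL5A3 (ENSG00000080573.7), the rarer chain of type V, had 5, 10 and 6 counts in control and 41, 34 and 21 counts in STAT3 shRNA libraries. It rose (1.91 ± 0.385, adjusted p = 0.00870) from a level close to the floor. COL5A3 passed the filter only through the STAT3 shRNA libraries, so it had to lean that way.

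The other fibrillar chains did not pass the test. COL5A1 (ENSG00000130635.15), which controls the thickness of fibrils, had the highest mean level per kb in both groups, with 637, 699 and 746 CPM in control and 626, 704 and 589.6 CPM in STAT3 shRNA libraries. The groups overlapped, and the 95% interval of its log2 fold change ran from -0.34 to 0.10 (-0.12 ± 0.0985, adjusted p = 0.457). COL27A1, a chain of cartilage fibrils, lay at 23.2, 23.5 and 27.4 CPM and at 25.5, 25.0 and 22.3 CPM, with an interval from -0.28 to 0.23 and overlapping groups. Its sign turned positive with upper-quartile factors (0.03) and with library totals (0.07). COL11A2, a cartilage chain that joins type XI fibrils, had 12 to 18 counts in control and 25 to 28 in STAT3 shRNA libraries (0.65 ± 0.346, adjusted p = 0.236).

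**Figure D3:**
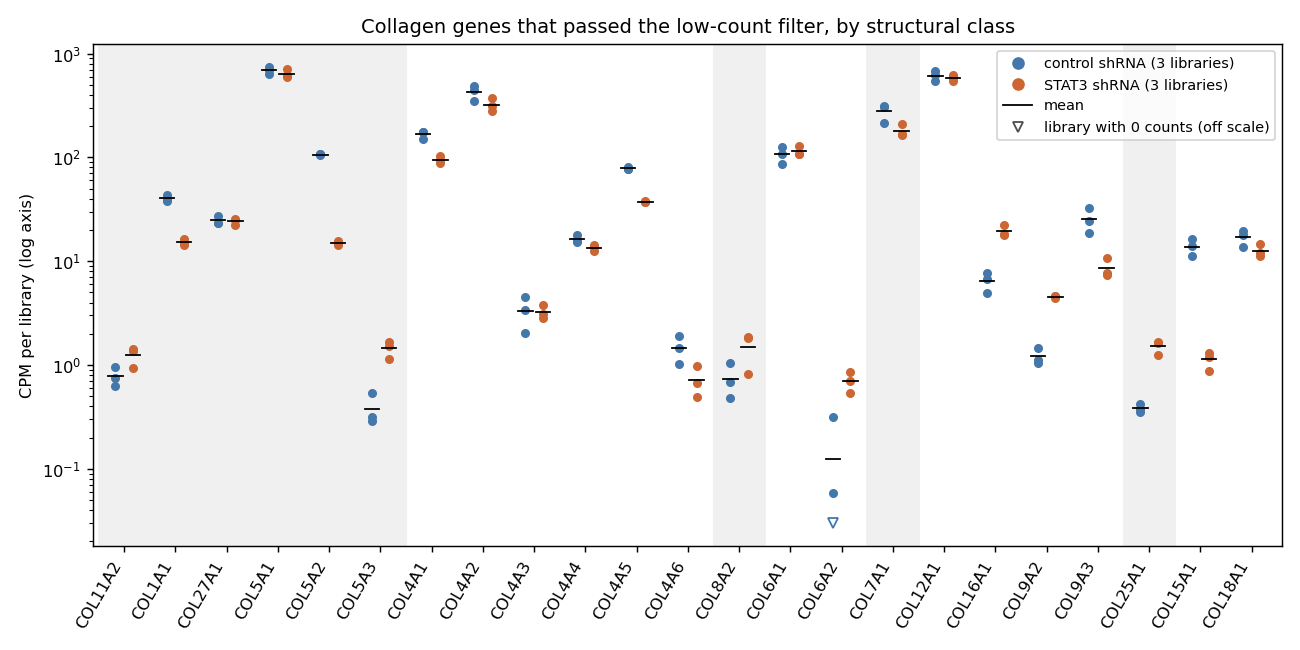
CPM in each library on a log axis (y axis) for the 23 tested collagen genes (x axis), 3 control and 3 STAT3 shRNA libraries each, with the mean as a bar and classes shaded in turn. The points of COL5A2 sit at 106 to 107 CPM in control and 14.4 to 15.7 CPM in STAT3 shRNA libraries, while those of COL5A1 overlap.

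The chains of type IV collagen, the sheet-forming collagen of basement membranes, all had a log2 fold change below 0. The sign of COL4A3 turned with upper-quartile factors and library totals. Of the 6 chains, 2 passed the test, both lower (33.3% called, against 17.5% of all tested genes). COL4A1 (ENSG00000187498.16) lay at 152, 174 and 176 CPM in control and at 93.6, 103 and 88.1 CPM in STAT3 shRNA libraries. No library of one group reached the other, and the level fell 1.76-fold (-0.82 ± 0.0996, adjusted p = 5.91e-04). COL4A2 (ENSG00000134871.18), which shares the start region printed above with COL4A1, lay at 347, 441 and 483 CPM in control and 311, 369.6 and 279.5 CPM in STAT3 shRNA libraries. Its groups overlapped, since control library 1 lay below STAT3 shRNA library 2. The change did not pass (-0.41 ± 0.142, adjusted p = 0.0833). It did pass with the DESeq2 Wald test (adjusted p = 0.0396), with no filter on low counts (0.0304), without control library 1 (0.0111) and without STAT3 shRNA library 2 (0.0499), and its adjusted p ranged from 0.0111 to 0.283 over 13 alternatives.

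COL4A5 (ENSG00000188153.13), an X-linked chain of kidney and other basement membranes, lay at 81.3, 78.0 and 77.8 CPM in control and at 37.4, 38.1 and 37.1 CPM in STAT3 shRNA libraries. The spread within each group was small beside the gap, and the level fell 2.10-fold (-1.07 ± 0.0838, adjusted p = 5.53e-05). COL4A6, the chain that starts opposite COL4A5 and joins it in one form of type IV, had 33, 19 and 28 counts in control and 18, 10 and 18 counts in STAT3 shRNA libraries. In CPM the groups did not overlap, but the change was not called at this depth (-1.04 ± 0.391, adjusted p = 0.103). COL4A6 passed the filter only through the control libraries, so it had to lean lower. COL4A3 and COL4A4, which pair with COL4A5 in the kidney filter, were not called. COL4A4 lay at 16.0, 15.4 and 18.0 CPM and at 13.8, 14.3 and 12.4 CPM (-0.29 ± 0.119, adjusted p = 0.136). COL4A3 had 35 to 86 counts in control and 58 to 82 in STAT3 shRNA libraries, and its log2 fold change of -0.04 ± 0.291 changed sign in 5 of 13 alternatives. Reads of COL4A3 cannot be told apart from those of an overlapping antisense gene that had 30 counts in all.

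COL7A1 (ENSG00000114270.17), the anchoring fibril chain whose promoter is printed above, lay at 216, 309.8 and 308.6 CPM in control and 169, 208 and 166 CPM in STAT3 shRNA libraries. Control library 1 was close to STAT3 shRNA library 2, but the groups did not overlap. The level fell 1.53-fold (-0.62 ± 0.152, adjusted p = 0.0220). This was the only call among the members that single libraries decided: the adjusted p was 0.102 without control library 2, 0.0759 without control library 3, and 0.101 and 0.104 without STAT3 shRNA library 1 or 3. Its range over 13 alternatives was 8.08e-04 to 0.104.

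The multiplexins lie between basement membrane and stroma, and 1 of the 2 fell, where 8.13% of all tested genes were lower. COL15A1 (ENSG00000204291.11) lay at 16.3, 11.1 and 13.95 CPM in control and at 1.31, 0.883 and 1.20 CPM in STAT3 shRNA libraries. The lowest control library was far above the highest STAT3 shRNA library, and the level fell 12.1-fold (-3.59 ± 0.221, adjusted p = 1.45e-05). COL18A1 (ENSG00000182871.15), whose C-terminal fragment is the angiogenesis inhibitor endostatin, lay at 13.6, 17.9 and 19.5 CPM and at 11.3, 14.8 and 11.9 CPM. Its groups overlapped, and it was called only without control library 1 (-0.42 ± 0.165, adjusted p = 0.114, against 0.0213 without that library and a range of 0.0213 to 0.336 over 13 alternatives). Exons of COL18A1 overlap those of SLC19A1, a folate transporter gene on the other strand, which had 7571 counts in all against 1761 of COL18A1. SLC19A1 was not called (-0.26 ± 0.149), and without a known strand setting reads of the 2 genes cannot be told apart.

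FACIT genes went both ways, with 2 of 4 tested higher and 1 lower (75.0% called, against 17.5% of all tested genes). COL9A2 (ENSG00000049089.15) and COL9A3 (ENSG00000092758.17) encode 2 chains of type IX collagen, which coats cartilage fibrils. COL9A2 had 18, 21 and 28 counts in control and 118, 94 and 84 counts in STAT3 shRNA libraries, or 1.21 ± 0.228 and 4.54 ± 0.0959 CPM (SD, n = 3), and rose 3.72-fold (1.89 ± 0.223, adjusted p = 4.98e-04). COL9A3 lay at 18.8, 24.6 and 32.4 CPM in control and at 7.69, 10.8 and 7.30 CPM in STAT3 shRNA libraries, and fell 2.94-fold (-1.56 ± 0.221, adjusted p = 0.00131). The groups of both genes were fully apart, in opposite directions. Exons of COL9A3 overlap those of TCFL5, a transcription factor gene on the other strand, which had 5090 counts in all against 1957 of COL9A3. TCFL5 lay at 40.5 ± 2.52 CPM in control and 43.8 ± 0.505 CPM in STAT3 shRNA libraries and was not called (0.11 ± 0.0916, adjusted p = 0.435). Without a known strand setting, reads of COL9A3 and TCFL5 cannot be told apart.

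COL16A1 (ENSG00000084636.18), a FACIT-like collagen that links fibrils to cells, lay at 4.89, 7.78 and 6.69 CPM in control and 17.8, 22.4 and 18.4 CPM in STAT3 shRNA libraries. It was the 1 member with a mean of at least 5 CPM that rose (3.01-fold, 1.59 ± 0.181, adjusted p = 4.16e-04). COL12A1 (ENSG00000111799.21), which bridges type I fibrils and other matrix, lay at 685, 618 and 541 CPM in control and 619.8, 582 and 543 CPM in STAT3 shRNA libraries. The groups overlapped, with an interval of the log2 fold change from -0.31 to 0.16. Its sign turned with library totals (0.01) and without control library 1 (0.02).

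Few members of the remaining classes were tested. COL25A1 (ENSG00000188517.16), a membrane-spanning collagen found in neurons, had 6, 7 and 8 counts in control and 33, 34 and 30 counts in STAT3 shRNA libraries. It rose (1.96 ± 0.346, adjusted p = 0.00444) from a level close to the floor. COL25A1, and COL6A2 and COL8A2 below, passed the filter only through the STAT3 shRNA libraries, so these had to lean that way. In the beaded filament class, COL6A1 lay at 87.1, 109 and 125 CPM and at 107, 129 and 107 CPM with overlapping groups, and the interval ran from -0.22 to 0.41. COL6A1 turned to -0.02 without control library 1 and to -0.0029 without STAT3 shRNA library 2. Its neighbour and partner COL6A2 had 1, 0 and 6 counts in control and 23, 11 and 13 in STAT3 shRNA libraries. COL6A2 was not called (2.42 ± 0.767, adjusted p = 0.0595), but was called with library totals (adjusted p = 0.0480), with no filter on low counts (0.0290) and without control library 3 (0.0110, with 4.39 on the log2 scale), over a range of 0.0110 to 0.201. COL6A3, a further chain that type VI needs, had 0 to 2 counts in every library. COL8A2, a short-chain collagen of the cornea and vessels, had 9 to 18 counts in control and 22 to 37 in STAT3 shRNA libraries and was not called (1.01 ± 0.440, adjusted p = 0.154).

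Chains of one collagen were compared within each library, where scaling cancels, as the log2 ratio of their counts (each plus 2). Of the pairs listed, 6 had both chains tested. The exact two-sided permutation test over 20 assignments of the 6 libraries cannot go below 0.1. COL5A1 over COL5A2 stood at 2.58, 2.71 and 2.81 in control and at 5.43, 5.56 and 5.22 in STAT3 shRNA libraries, a difference of 2.70 (exact permutation p = 0.1, 0.15 adjusted over the 6 pairs, n = 3 per group). Per kb, COL5A1 was 5.43 times COL5A2 in control and 35.4 times in STAT3 shRNA libraries. COL9A2 over COL9A3 stood at -4.02, -4.33 and -4.36 in control and at -0.79, -1.21 and -0.66 in STAT3 shRNA libraries, a difference of 3.35 (exact permutation p = 0.1, adjusted 0.15, n = 3 per group). In each of these pairs the ratio in any STAT3 shRNA library lay above that in any control library.

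Differences were smaller among the head-to-head pairs of type IV. COL4A1 over COL4A2 stood at -1.19, -1.34 and -1.46 in control and at -1.73, -1.84 and -1.67 in STAT3 shRNA libraries. The groups did not overlap, and COL4A1 was lower relative to COL4A2 by a difference of -0.41 (exact permutation p = 0.1, adjusted 0.15, n = 3 per group). The ratio of COL4A5 to COL4A6 was 5.69 ± 0.406 and 5.59 ± 0.465 (SD, n = 3) and overlapped between groups (exact permutation p = 0.8). COL4A6 had only 10 to 33 counts per library. It passed the filter only through the control libraries, so it had to lean lower with the STAT3 shRNA. The overlap therefore does not show that the 2 chains fell together. The ratio of COL4A3 to COL4A4 overlapped too, at -2.34 ± 0.496 and -2.04 ± 0.308 (exact permutation p = 0.5, n = 3 per group). COL6A1 over COL6A2 was 9.06 ± 0.893 and 7.18 ± 0.431, without overlap. The difference was -1.88 (exact permutation p = 0.1, adjusted 0.15, n = 3 per group). COL6A2 passed the filter only through the STAT3 shRNA libraries, so this ratio had to lean lower there. The difference also rests on the few control counts of COL6A2, and became -2.84 with 0.5 added to the counts.

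**Figure D4:**
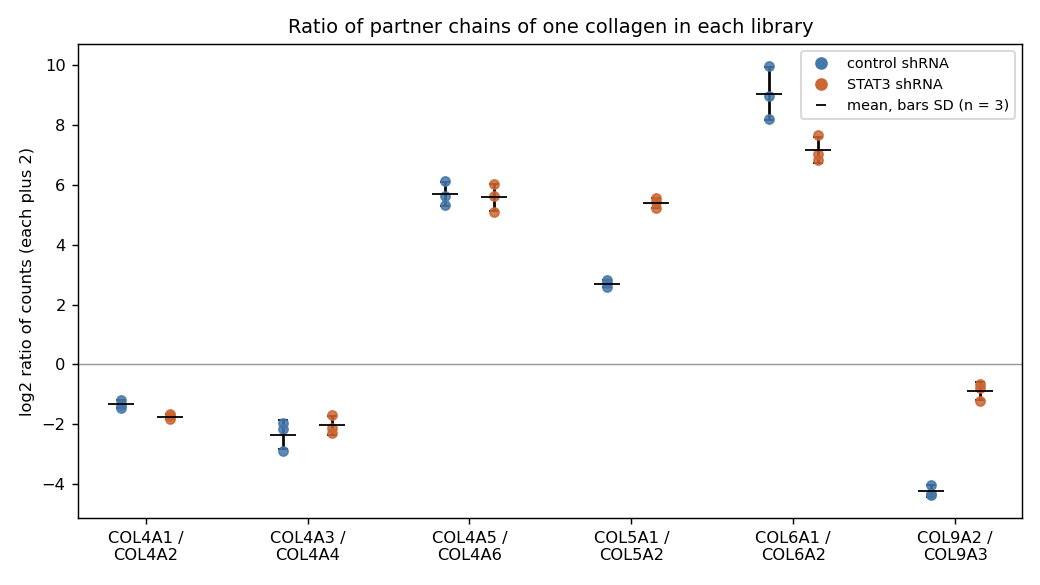
Log2 ratio of the counts of 2 partner chains (y axis) in each library for the 6 pairs tested (x axis), with the mean and SD of 3 libraries per group. The ratio of COL5A1 to COL5A2 goes from 2.70 to 5.40 and that of COL9A2 to COL9A3 from -4.24 to -0.89, while the ratio of COL4A5 to COL4A6 overlaps between groups.

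Some members lie in stretches of chromosome where many genes differed. Each tested member was set beside the nearest expressed genes (mean of at least 1 CPM), up to 20 on each side in GENCODE 29 order. Around COL5A2 on chromosome 2, 22 of 40 neighbours fell and 0 rose, with a median log2 fold change of -0.51, against -0.02 over all genes at that level. None of the 40 was as low as COL5A2. Around COL4A3, on the same chromosome, 26 of 40 fell with a median of -0.63, and around COL4A4 25 of 40 with a median of -0.62, windows that overlap because the 2 genes lie side by side. There COL4A3 and COL4A4 lay above 38 and 31 of their 40 neighbours. Around COL15A1 the median was 0.07, and around COL1A1, COL4A5, COL4A1 and COL9A3 it lay between -0.05 and 0.02. On chromosome 21, which gave only 30 to 32 such neighbours, the medians around COL18A1, COL6A1 and COL6A2 were -0.18 to -0.21. The part of the chromosome stretch in the COL5A2 value was not tested.

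**Figure D5:**
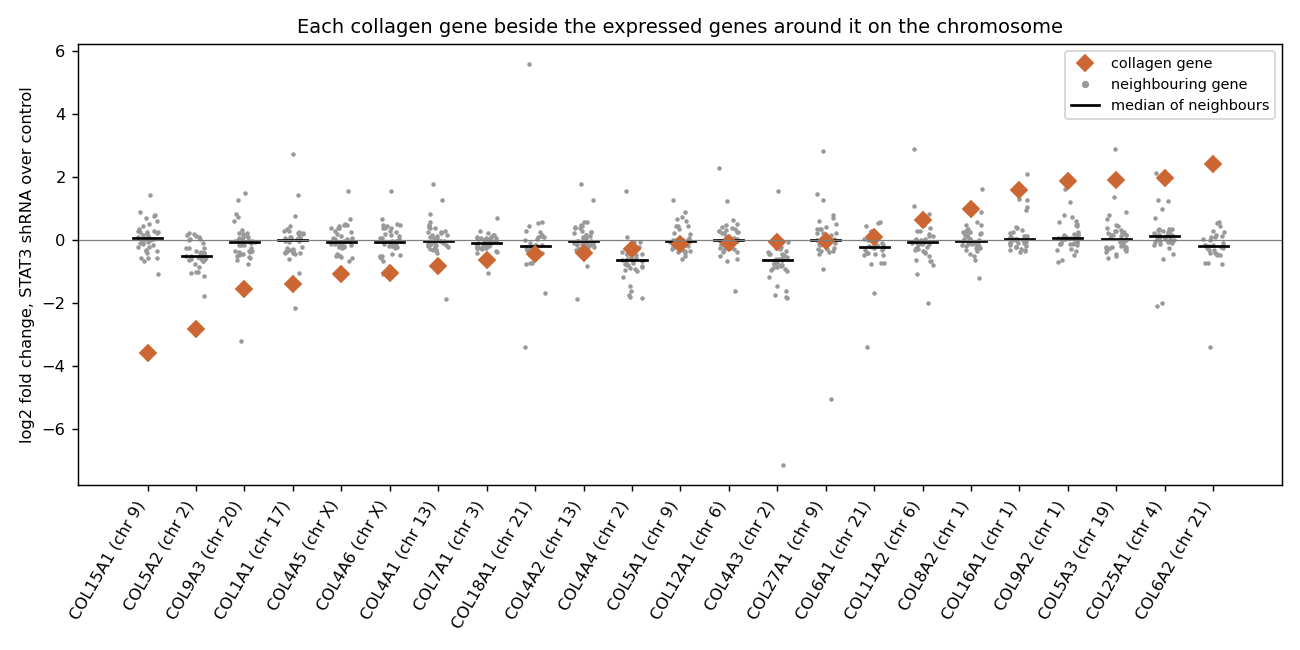
Log2 fold change (y axis) of each tested collagen gene (diamonds) and of the expressed genes nearest to it on its chromosome (dots, with their median as a bar), ordered by the change of the collagen gene (x axis). The bars lie near 0 for most members and at -0.51 for COL5A2, -0.62 for COL4A4 and -0.63 for COL4A3.

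Genes that make, export, cross-link, bind and degrade collagen were read from 7 lists, and share called is set against 17.5% of all tested genes. Of 19 tested genes that hydroxylate, glycosylate and fold procollagen, 3 rose and 3 fell (31.6%, median -0.06). The lysyl hydroxylases PLOD1, from 217 ± 10.5 to 112 ± 4.25 CPM (-0.95 ± 0.0828), and PLOD2, from 160.3 ± 22.6 to 71.5 ± 8.19 CPM (-1.17 ± 0.127), fell. Both enzymes prepare lysines for cross-links. The prolyl 3-hydroxylases P3H2, from 14.1 ± 1.75 to 47.9 ± 1.06 CPM (1.76 ± 0.115), and P3H3 (1.52 ± 0.239) rose. Without control library 1 the higher count was 5, and 2 without control library 2. Of 16 tested genes in the export list, 1 rose, TANGO2 (0.47 ± 0.112, adjusted p = 0.0190), and 0 fell (6.25%, median 0.09). A role of TANGO2 in procollagen export is not established, and no other gene of the list was called in this fit. TANGO2 missed the threshold with control library 2 (adjusted p = 0.102) or STAT3 shRNA library 1 (0.0546) or 3 (0.0906) left out. For the list, the higher count was 3 without control library 1 and 2 without STAT3 shRNA library 2, and 2 genes fell without control library 3.

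Of 12 tested genes of propeptide removal and cross-linking, 3 rose and 3 fell (50%, median 0.25). The transglutaminase TGM2 fell from 141 ± 10.6 to 52.2 ± 1.89 CPM (-1.44 ± 0.0908), and the lysyl oxidase LOX, which starts collagen cross-links, from 40.3 ± 4.05 to 13.98 ± 2.82 CPM (-1.53 ± 0.155). Its relative LOXL4 rose from 1.41 ± 0.169 to 4.53 ± 0.643 CPM (1.67 ± 0.223). PCOLCE, an enhancer of procollagen C-proteinase, also rose (0.76 ± 0.141). The C-proteinase BMP1, named after its values were seen, fell from 103 ± 14.6 to 73.1 ± 4.93 CPM (-0.49 ± 0.117, adjusted p = 0.0188). PXDN, named likewise, rose from 294 ± 5.90 to 374 ± 19.6 CPM (0.35 ± 0.0796, adjusted p = 0.0156). Calls in this list went both ways.

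Among 7 tested collagen receptors, 2 fell and 0 rose (28.6%, median -0.38): ITGA1, the integrin subunit that binds type IV collagen, from 37.8 ± 5.74 to 18.0 ± 0.744 CPM (-1.07 ± 0.128), and the adhesion receptor ADGRG1 (-0.96 ± 0.110). Of 7 tested proteases and inhibitors, 3 rose and 2 fell (71.4%, median 0.68). FAP passed the filter only through the control libraries and MMP13 only through the STAT3 shRNA libraries, so these had to lean that way, and among the other 5, 3 rose and 1 fell. The metalloproteinase inhibitors TIMP2, from 187 ± 9.76 to 305 ± 19.4 CPM (0.70 ± 0.0870), and TIMP3 (0.68 ± 0.102) rose, and the membrane protease MMP15 fell (-0.93 ± 0.122). The related membrane protease MMP14, named after its values were seen, rose from 28.3 ± 6.35 to 49.0 ± 4.29 CPM (0.79 ± 0.155, adjusted p = 0.00769), and the inhibitor TIMP1, named likewise, was not called (177 ± 20.8 and 168 ± 9.36 CPM). FAP, a surface protease, had 14, 10 and 21 counts in control and 0 in each STAT3 shRNA library, at least 5.80-fold lower taking 3 counts per library as the floor. The median of the list is the same 0.68 with FAP at that bound. The lower count was 1 where at least 1 CPM in 3 libraries was required.

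Of 10 tested basement membrane partners, 1 rose and 2 fell (30.0%, median 0.03). The laminin chain LAMA1 rose from 28.7 ± 1.96 to 318 ± 19.0 CPM (3.47 ± 0.0993), while the laminin chain LAMA5 (-0.50 ± 0.0929) and the heparan sulfate proteoglycan HSPG2 (-0.42 ± 0.1001) fell. HSPG2 was not called without control library 2 (adjusted p = 0.0599) or STAT3 shRNA library 1 (0.0721) or 3 (0.0878), against 0.0192 with all. Without each of these in turn the lower count of the list was 1, and the higher count was 3 without control library 1 and 2 without control library 2 or 3 or STAT3 shRNA library 2 or 3. Of 6 tested fibril regulators, 2 rose and 1 fell (50%, median 0.50). FMOD and EMILIN1 passed the filter only through the STAT3 shRNA libraries, and among the other 4, 1 rose and 1 fell, with a median of 0.19. FMOD, or fibromodulin, a proteoglycan on type I fibrils, had 0, 2 and 2 counts in control and 223, 144 and 145 in STAT3 shRNA libraries, a ratio of 107 scaled to library size (exact 95% interval 41.7 to 396, counting error only). The matrix linker MATN2 rose (0.97 ± 0.122), and fibronectin (FN1), on which cells assemble collagen, fell from 11.4 ± 1.72 to 1.21 ± 0.615 CPM (-3.24 ± 0.309).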

How the data were processed

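Whole-number counts per gene and library were deposited by the authors, and no normalization is visible in the values. For aligner, counting program, strand setting, build and annotation the sources used here give nothing. All 6 libraries were grouped by the titles in the labels. In 23 rows the symbol had become a date and was restored by identifier. GENCODE 29 (37 of 37 members matched by identifier) gave transcript length, gene order and overlaps only.

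In R 4.3.3, edgeR 4.0.16 kept 14999 genes (filterByExpr, minimum count 10, minimum total 15), scaled by TMM, and tested STAT3 shRNA against control with the two-sided quasi-likelihood F test with robust dispersion, group only, FDR 0.05. SE is the log2 fold change divided by the square root of F, and 95% intervals for single log2 fold changes use the t quantile of that test. CPM uses full library totals times the TMM factor. DESeq2 1.42.0, other scalings, filters, a replicate block, FDR 0.01 and leaving out each library were alternatives. The fit was tested on a single set of simulated counts, in which a smaller share of genes changed than was called here. There, false calls were more frequent than the threshold states and most of the smallest changes were missed. Because the settings differ, the simulation does not give the error rates of these data. Libraries of a group differed by a chi-square of 4.34 to 45.4 per degree of freedom, so none repeats another.

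The members and lists were chosen with earlier results of these data known, and the comparison with chromosome neighbours and the GGGCGG and CCAAT searches were added afterwards. Named are STAT3, every tested member, and for each list up to 4 called genes with the smallest FDR, with FAP and FMOD by counts because a group was at or near 0. BMP1, PXDN, MMP14 and TIMP1 were named after their values were seen. Each tested member with FDR under 0.05 or a mean of at least 5 CPM has its value in every library.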

Additional observations from a re-analysis of the deposited data

How the results depend on the processing

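Over 13 alternative fits, 10 of 11 called members stayed called and 3 of 12 others (COL18A1, COL4A2, COL6A2) were called in at least 1. Collagen counts were 4 to 5 higher and 6 to 9 lower. Signs turned for 4 members near 0. COL12A1 was 0.0138 with library totals. COL4A3 was 0.0118 with upper-quartile factors, 0.0602 with library totals and 0.0144 with the replicate block. COL27A1 was 0.0288 with upper-quartile factors and 0.0737 with library totals. With each library left out in turn, COL12A1 ranged from -0.158 to 0.0174 (above 0 without control library 1), COL4A3 from -0.281 to 0.256 (above 0 without control library 3 or STAT3 shRNA library 2), COL27A1 from -0.0641 to 0.0627 (above 0 with control library 3 or STAT3 shRNA library 3 out) and COL6A1 from -0.0223 to 0.227 (below 0 with control library 1 or STAT3 shRNA library 2 out). At FDR 0.01, 726 genes were higher and 628 lower, with 0 export genes higher and 1 basement membrane partner lower. Leaving out each library gave 796 to 2068 genes higher and 666 to 2030 lower, 2 to 5 folding genes higher, 0 to 3 export genes higher and 0 to 2 lower, and 1 to 3 basement membrane partners higher and 1 to 2 lower. Basement membrane partners had 2 higher with library totals or with no filter on low counts, and 1 protease was lower where at least 1 CPM in 3 libraries was required. The cause of these changes was not tested. Replicate numbers did not pair the libraries: same-numbered libraries had correlations of deviations of 0.51, 0.33 and -0.44. Libraries with different numbers had correlations from -0.731 (control 1 with STAT3 shRNA 2) to 0.585 (control 3 with STAT3 shRNA 2). Some deviations were thus shared across the groups in a way that the numbers do not follow. Their source was not tested. With the replicate block, 1210 genes were higher and 1068 lower, and the collagen counts were 4 and 7. The sign of COL4A3 was the 1 member result that the block turned. COL6A2 and COL4A6, which were not called, had at most 33 counts in any library.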
